A study of Mus musculus with 6 samples.

Results

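The SLAM family (signaling lymphocytic activation molecule) receptors described here are the products of Slamf7, Slamf8, Slamf9, Ly9, Cd48 and Cd84, 6 of 46603 genes counted in each library. The genes were chosen by their measured levels in macrophages given cancer cell-conditioned medium with lipids against macrophages given that medium without lipids, so the values of that contrast below describe them and test nothing. All 6 passed the filter on low counts. The cells were bone marrow-derived macrophages of C57BL/6/J mice, 7 weeks old, grown with 10% fetal serum and 20% L929-conditioned medium, a source of macrophage growth factor. On day 6 they were lifted and plated, 800000 to a well. Both groups received medium from cancer cells 6 h after plating, and the groups differed in whether that medium held its lipids. Each group had 3 libraries. The sources used here name neither the cancer line nor the method of lipid removal nor the time in the medium, no group without cancer cell-conditioned medium is analysed here, and nothing in the labels says whether replicates were separate mice or cultures.

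SLAM receptors are immunoglobulin-domain proteins on the surface of blood cells. Most bind a second copy of themselves on a neighbouring cell, while CD48 has no cytoplasmic tail, is held by a lipid anchor and serves as the ligand of CD244 and CD2. The tails of Ly9 (also CD229), SLAMF7 (also CRACC) and CD84 carry tyrosine switch motifs. These recruit adaptors of the family of SAP and EAT-2, not each receptor both, or phosphatases among SHP-1, SHP-2 and SHIP1. The same receptor can thus activate or inhibit. SLAMF8 and SLAMF9 have short tails without that motif. In macrophages SLAMF7 is known for promoting the engulfment of blood-derived tumour cells together with the integrin Mac-1, and SLAMF8 for dampening the NADPH oxidase.

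Libraries held 19429022 to 25323053 counts, and levels are given in CPM, a gene's count scaled to a library of fixed size. A count of 0 allows up to 3 counts, or 0.118 to 0.154 CPM depending on the library, a limit for counting error only. Replicate 1 of the group without lipids stood apart on the second principal component, at -17.7 where the other 5 libraries lay between -0.616 and 10.5. The macrophage identity of the cells was visible in Csf1r at 3032 CPM with lipids and 2850 CPM without, and in Adgre1 at 2968 and 2651 CPM. Of 8 macrophage markers 1 was lower with lipids (Cd68, -0.55 log2) and 2 were higher (Itgam and Fcgr1, described below with the pathway lists). Lymphocytes also carry SLAM receptors, and several of their defining genes were not detected: Cd3e, Cd8a, Pax5, Eomes, Gzma and Prf1 had 0 counts in all 6 libraries. The summed level of the 6 T cell markers was 6.60 to 7.44 CPM with lipids and 11.7 to 17.6 CPM without, nearly all of it Cd4 at 6.54 and 14.6 CPM, which was past the threshold at -1.16 log2 (edgeR adjusted p = 0.000879). The 5 B cell markers summed to 1.72 to 2.19 CPM with lipids and 1.52 to 2.30 CPM without, mostly Cd79b at 1.74 and 1.83 CPM, which was above the floor and did not pass (edgeR adjusted p = 0.858). The 5 fibroblast markers summed to 114 to 122 CPM with lipids and 118 to 162 CPM without, and 1 of the 5, Col3a1, was past the threshold at -0.50 log2 (edgeR adjusted p = 0.014). The 4 megakaryocyte and platelet markers summed to 10.4 to 12.9 CPM with lipids and 3.02 to 3.37 CPM without. Nearly all of that was Ppbp at 11.4 and 2.81 CPM, past the threshold at 2.02 log2 (edgeR adjusted p = 1.08e-05). Itga2b, at 0.435 CPM with lipids and 0.286 CPM without, Gp9 and Gp1bb lay below the filter on low counts. The 6 neutrophil markers summed to at most 0.841 CPM. The part of these other cell types in the results below was not tested.

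Macrophages given the medium with lipids held less transcript of Slamf8, Slamf7 and Ly9, by 2.91-fold, 1.97-fold and 1.84-fold. Cd84 and Cd48 were lower by 1.28-fold and 1.20-fold, and Slamf9 stood at 1.21 times its level without lipids, with groups that overlapped. In these bulk samples fewer cells with a transcript and less of it per cell cannot be told apart. With edgeR's quasi-likelihood test, adjusted over 12767 genes and called at 0.05, 5 of the 6 were lower and 0 higher, beside 6.87% of all tested genes lower, 4.58% higher and 11.5% in either direction. No group overlap was seen for those 5 genes, and the groups did not overlap for 30.5% of all tested genes. Because the contrast chose the genes, nothing is read from these shares.

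**Figure D1:**
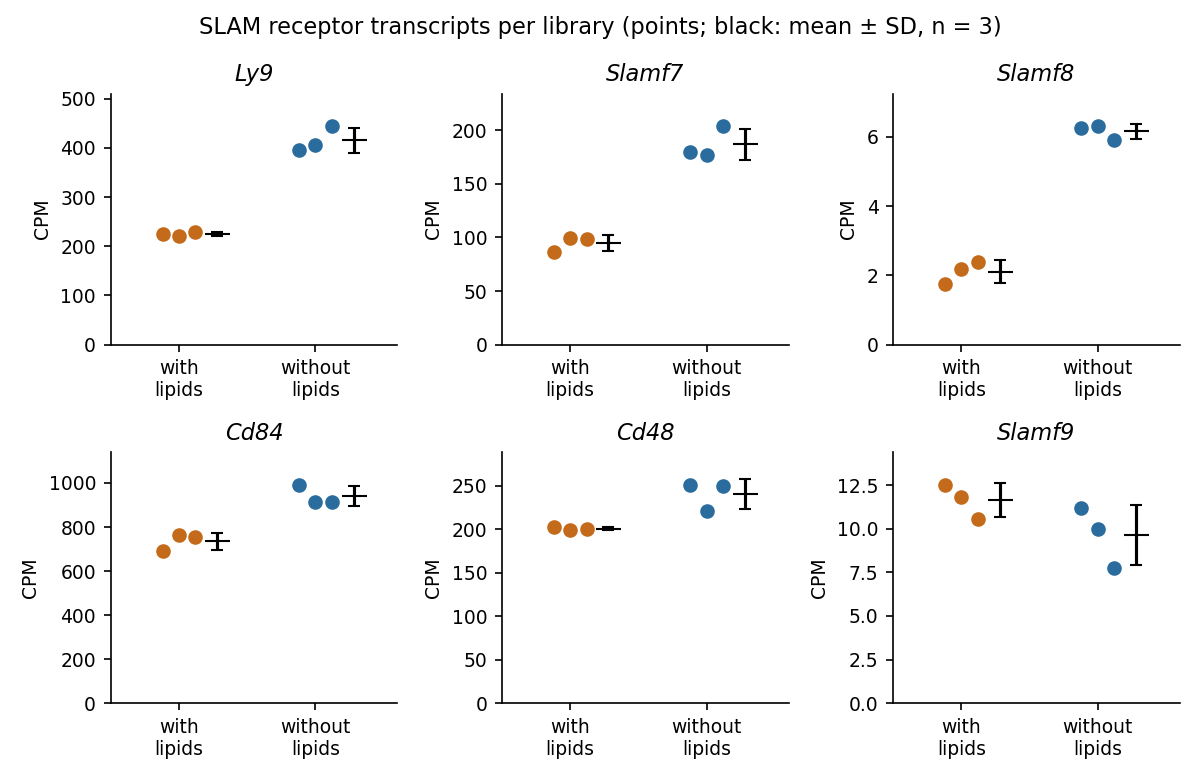
Level of each SLAM receptor transcript in CPM (linear axis from 0), 1 point per library, with lipids in orange and without in blue, and the mean ± SD (n = 3) in black. Ly9, Slamf7 and Slamf8 separate widely, Cd84 and Cd48 by a small gap, and the groups of Slamf9 overlap.

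Ly9 encodes a receptor that binds itself and lies on chromosome 1 (171588624 to 171607410, minus strand, GRCm38), with 11 exon blocks. Its level was 226, 221 and 230 CPM in the libraries with lipids and 395, 406 and 444 CPM in those without. The lowest library without lipids was thus far above the highest with them, and the spread with lipids was small, at 1.85% of the mean. The log2 fold change, with lipids minus without, was -0.88 (SE 0.06). Cd244a lies on the other strand of Ly9 without sharing exon bases, and held 397 counts over the 6 libraries against 40505 for Ly9.

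Slamf7, the next SLAM gene along the chromosome (171632403 to 171653035, minus strand), had the second largest difference. It was at 86.6, 99.5 and 98.8 CPM with lipids and at 180.0, 177 and 204 CPM without. Every library without lipids stood well above every library with them. The log2 fold change was -0.98 (SE 0.08). An antisense transcript, Gm37787, shares 423 exon bases with Slamf7, but held only 68 counts in all against 17807.

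Cd84 encodes a self-binding receptor and was the most highly counted of the 6, at 692, 763 and 753 CPM with lipids and 992, 914 and 916 CPM without. The groups did not overlap, and the gap between them was wider than the spread inside either one. Its log2 fold change was -0.35 (SE 0.06). Cd84 lies at 171839697 to 171890718 on the plus strand.

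Cd48, the anchored ligand, lies between Slamf7 and Cd84 at 171682009 to 171705258. Its libraries held 202, 199.6 and 199.9 CPM with lipids, closely alike, and 251, 221 and 250.2 CPM without. Replicate 2 without lipids came nearest to the other group. The log2 fold change was -0.26 (SE 0.06), and its call was the least secure of the 5. It was lost when libraries were scaled by their totals alone (-0.19, edgeR adjusted p = 0.0786), and when any 1 of the 3 libraries with lipids was left out (edgeR adjusted p = 0.0826 to 0.113) or replicate 3 without lipids was (edgeR adjusted p = 0.0519).

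Slamf8 and Slamf9 form a separate pair farther along chromosome 1, and their values differed in sign. Slamf8 (172581758 to 172590568, minus strand) had 39, 57 and 51 counts with lipids, or 1.76, 2.19 and 2.39 CPM, and 119, 119 and 129 counts without, or 6.26, 6.31 and 5.92 CPM. The groups were far apart although the gene was weakly transcribed. The log2 fold change was -1.54 (SE 0.14), and 0.219% of all tested genes had a lower value. The same share was 0.815% for Slamf7, 1.22% for Ly9, 8.35% for Cd84 and 13.3% for Cd48.

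Slamf9, a short-tailed receptor like SLAMF8, lies at 172475358 to 172478575 on the plus strand. It was at 12.5, 11.8 and 10.6 CPM with lipids and 11.2, 9.97 and 7.76 CPM without. Replicate 1 without lipids lay above the lowest library with lipids, so the groups overlapped. The log2 fold change was 0.28 (SE 0.14, 95% interval -0.02 to 0.58), an interval that holds both no difference and one as large as that of Cd84 in the opposite direction. With replicate 1 without lipids left out the value was 0.41 and past the threshold (edgeR adjusted p = 0.0291).

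Levels of different genes were compared per kilobase of exon (RPKM). The order was Cd48, Cd84, Ly9, Slamf7, Slamf9 and Slamf8 in each of the 6 libraries. With lipids Cd48 was at 169 ± 1.3 RPKM, Cd84 at 117 ± 6.1, Ly9 at 68.2 ± 1.3, Slamf7 at 20.7 ± 1.6, Slamf9 at 8.86 ± 0.75 and Slamf8 at 0.686 ± 0.103 (SD, n = 3). Without lipids the same genes were at 203 ± 14, 150 ± 7.1, 126 ± 7.7, 40.8 ± 3.2, 7.34 ± 1.33 and 2.0 ± 0.07 RPKM (SD, n = 3). No neighbours in the order overlapped within a group. The closest pair was Cd84 and Ly9 without lipids, where the lowest value of Cd84 was 146 RPKM and the highest of Ly9 134 RPKM. These levels rest on the summed exons of all annotated isoforms, and a gene that uses only short isoforms is understated.

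**Figure D2:**
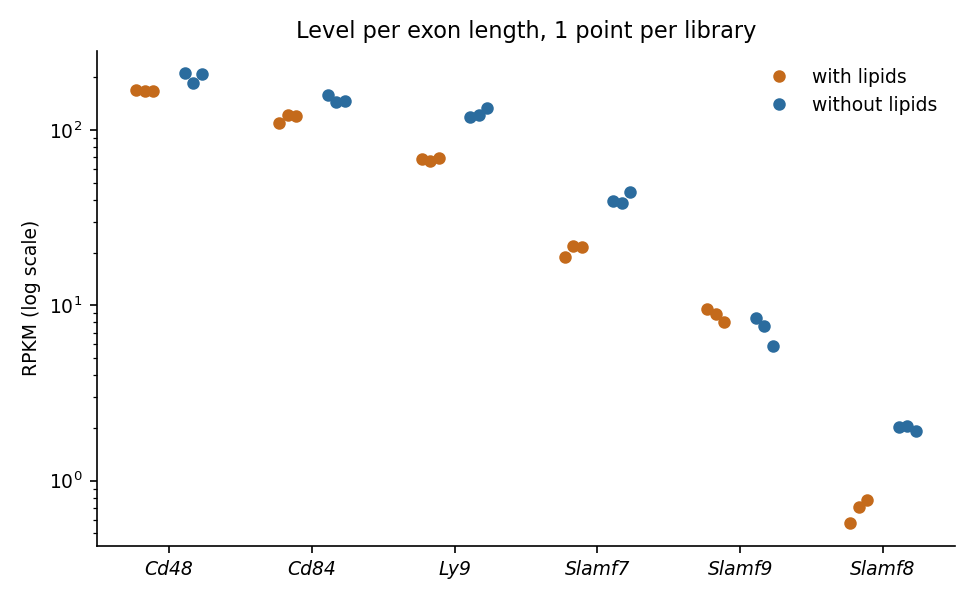
Level of each SLAM receptor transcript per exon length (RPKM, log axis), 1 point per library, with lipids in orange and without in blue. The order from Cd48 to Slamf8 is the same in both groups, and the distance between Cd84 and Ly9 is smaller without lipids.

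Ratios between members inside a library do not depend on how libraries are scaled. Cd84 stood at 1.72 ± 0.10 times the RPKM of Ly9 with lipids and 1.20 ± 0.12 times without. Cd48 stood at 2.47 ± 0.05 and 1.62 ± 0.13 times Ly9. In contrast, Ly9 stood at 3.30 ± 0.27 and 3.08 ± 0.09 times Slamf7, a ratio whose libraries overlapped between groups. Slamf9 exceeded Slamf8 by 13.2 ± 3.2 times with lipids and 3.66 ± 0.56 times without (all SD, n = 3). Thus Ly9 and Slamf7 differed by similar factors, and the ratio of the short-tailed pair differed most of these 4. The summed level of the 6 transcripts was 378 to 388 RPKM with lipids and 502 to 543 RPKM without. Ly9 made up 17.7 ± 0.42% of that sum with lipids and 23.8 ± 1.4% without, and Cd48 43.9 ± 1.0% and 38.3 ± 1.2%.

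The promoters of Slamf7 and Slamf8, which had the largest differences, and of Slamf9, which lies in the same cluster as Slamf8 and did not share its direction, are shown to let their sequences be compared. They are the 250 bases before each RefSeq start on GRCm38.p6, read 5′ to 3′ on the gene's own strand, from chr1:171649000-171649249 (minus strand), chr1:172590569-172590818 (minus strand) and chr1:172475110-172475359 (plus strand). The RefSeq start of Slamf7 lies inside the span annotated by GENCODE, whose outermost start is farther upstream. Capitals mark matches to the motifs named after the sequences.
Slamf7: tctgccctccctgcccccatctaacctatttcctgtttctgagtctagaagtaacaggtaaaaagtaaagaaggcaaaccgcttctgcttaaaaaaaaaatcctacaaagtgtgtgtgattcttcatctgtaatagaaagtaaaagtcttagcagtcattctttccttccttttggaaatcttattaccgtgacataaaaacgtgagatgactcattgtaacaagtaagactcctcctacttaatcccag
Slamf8: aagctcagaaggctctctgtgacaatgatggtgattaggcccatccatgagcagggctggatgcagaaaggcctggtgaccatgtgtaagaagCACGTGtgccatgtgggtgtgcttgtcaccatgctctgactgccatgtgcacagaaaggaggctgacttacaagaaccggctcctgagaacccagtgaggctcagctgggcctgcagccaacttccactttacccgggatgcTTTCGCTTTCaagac
Slamf9: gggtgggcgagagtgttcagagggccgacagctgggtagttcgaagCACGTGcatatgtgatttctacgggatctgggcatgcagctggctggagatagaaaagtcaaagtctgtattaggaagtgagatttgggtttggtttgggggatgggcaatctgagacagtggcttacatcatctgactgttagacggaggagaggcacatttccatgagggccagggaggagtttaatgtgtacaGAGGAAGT

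Motifs were searched on both strands of windows reaching from 250 bases before to 50 after the start, in 32851 promoters of that length. A window was at hand for 5 of the 6 genes, and Ly9, which had none, was not searched. The E-box CACGTG, the core site of MiT/TFE and USF factors, was at -157 to -152 in Slamf8 and -204 to -199 in Slamf9, and in 7.15% of all windows. Among family genes that are no members, Cd244a also held an E-box, at -64 to -59. An interferon-stimulated response element, read as 2 copies of GAAA with 2 bases between, was at -15 to -6 in Slamf8 on the opposite strand and in 3.44% of windows. An NF-kB site, read as GGGA and CC with 4 bases between, was at 36 to 45 in Slamf8, just after the start and outside the printed bases, at -42 to -33 in Cd84, and in 20.7% of windows. Slamf6, which is no member, also held an NF-kB site, at -56 to -47. The PU.1 site GAGGAAGT ended at the base before the start of Slamf9 (3.20% of windows). Neither Slamf7 nor Cd48 had a match to these or to the other motifs searched, the ETS-IRF composite (GGAA and GAAA with 2 bases between, 2.72% of windows) and the STAT site (TTC and GAA with 3 bases between, 8.30%). The response element and the composite share the letters GAAA and can overlap. The matches are descriptions of letters and not of binding.

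The other genes of the family were scarcely transcribed, but so was the member Slamf8. Per exon length, Cd244a and Slamf8 were at 0.660 and 0.686 RPKM with lipids and at 0.609 and 2.0 RPKM without. Cd244a, a receptor for CD48, was at 3.30, 2.65 and 3.70 CPM with lipids and 2.84, 3.50 and 2.57 CPM without, with groups that overlapped (log2 fold change 0.11, 95% interval -0.28 to 0.51). Slamf6 had 9 to 20 counts per library and Slamf1 2 to 7. Of 4 further family genes, 2 passed the filter, Cd244a and Slamf6, and 0 were past the threshold, 0 also with DESeq2 and 0 at an unadjusted edgeR p of 0.05. Over all tested genes 11.5% were past the threshold by edgeR. Slamf1 and Cd2 lay below the filter.

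The SLAM genes stand in 2 clusters on chromosome 1, so neighbours that are no members could be compared at the same place. There were 35 other annotated genes within the clusters or 100 kb of them, Cd244a, Slamf6 and Slamf1 among them, and 14 passed the filter. Of these, 0 were past the threshold by edgeR or DESeq2 (1 at an unadjusted edgeR p of 0.05, Gm37787). Over all tested genes 11.5% were past it by edgeR in either direction. For 14 genes a count of 0 is near that share, and nothing is read from it. The median log2 fold change of the 14 was -0.03, against -0.003 over all tested genes and -0.62 over the 6 members. The members were chosen by this contrast, so the difference between their median and that of the neighbours tests nothing. Tagln2, an actin-binding protein gene between Slamf9 and Slamf8 at 735 and 741 CPM with and without lipids, differed by -0.01 log2 (SE 0.07). Gm10521, next to Cd84, was at -0.16 (SE 0.08) and did not pass (edgeR adjusted p = 0.233). Gm37787, the transcript antisense to Slamf7, was at -0.81 (SE 0.30) on 6 to 15 counts per library and did not pass (edgeR adjusted p = 0.114). Reads of the pair cannot be told apart if counting ignored strand.

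**Figure D3:**
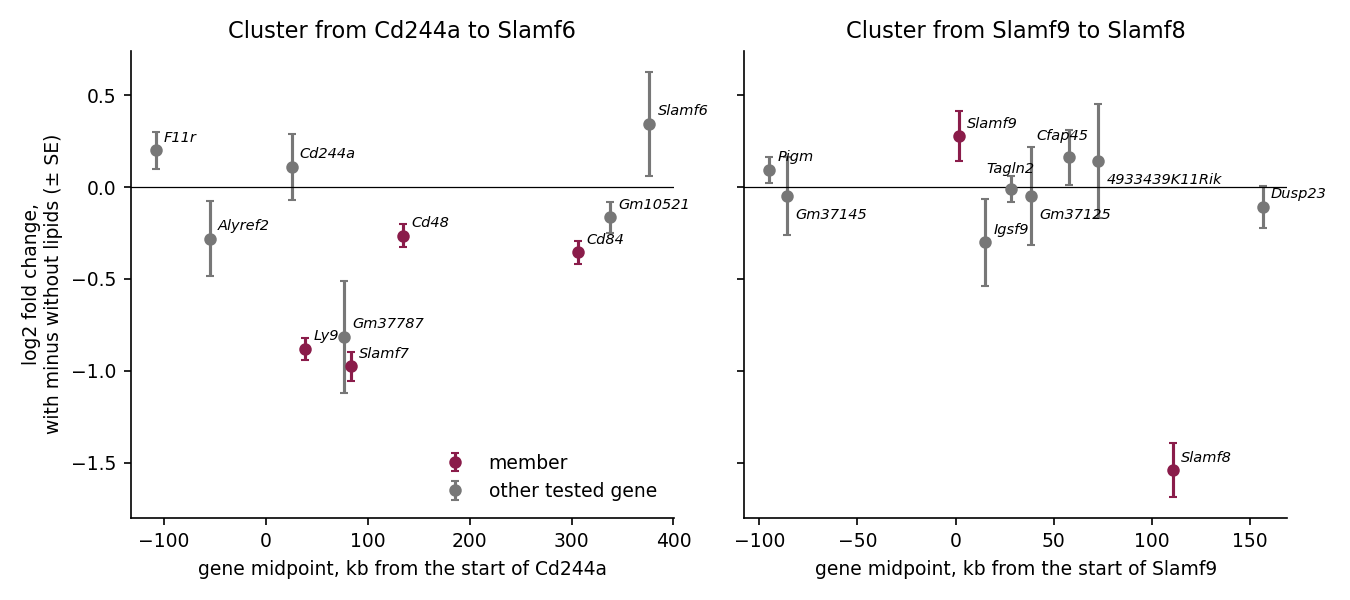
Log2 fold change (with minus without lipids, ± SE from the edgeR fit) of each tested gene against the distance of its midpoint in kb from the start of Cd244a (left) or Slamf9 (right), with the 6 SLAM receptors in dark red and the 14 other genes in grey. Ly9 and Slamf7 lie side by side at -0.88 and -0.98, while Slamf8 at -1.54 and Slamf9 at 0.28 stand with 5 other tested genes between them, which lie from -0.30 to 0.16.

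Beneath the receptors, the adaptors and enzymes that bind SLAM tails moved both ways. Of 15 such genes 13 were tested, and 2 were lower and 3 higher with lipids (median log2 fold change -0.05). Over all tested genes 6.87% were lower and 4.58% higher. The adaptor SAP, Sh2d1a, had 0 counts in every library, and of the EAT-2 adaptors Sh2d1b1 averaged 8.71 ± 0.12 CPM in the group with lipids and 9.97 ± 0.54 CPM in the other (SD over 3 libraries), which did not pass (edgeR adjusted p = 0.237). The phosphatase gene Inpp5d (SHIP1) was higher by 0.24 log2 (SE 0.05, edgeR adjusted p = 0.015), the kinase gene Lyn by 0.27 (SE 0.05, edgeR adjusted p = 0.00812) and the adaptor gene Dok2 by 0.50 (SE 0.11, edgeR adjusted p = 0.0167). The kinase gene Fgr was lower, at -0.60 (SE 0.13, edgeR adjusted p = 0.0124), on 5.24 ± 0.17 against 7.95 ± 1.12 CPM. Grb2 was lower at -0.24 (edgeR adjusted p = 0.0412), but scaling by library totals alone left it short of the threshold (-0.16, edgeR adjusted p = 0.128). The phosphatase genes Ptpn6 (SHP-1) and Ptpn11 (SHP-2) did not pass, at 0.03 and -0.08. Each of these 5 calls was lost when some single library was left out: 1 such library for Dok2, 2 for Lyn, 3 for Fgr, 4 for Inpp5d and 5 for Grb2. Replicate 2 with lipids was among them for all but Dok2, where it was replicate 1 with lipids. With 1 library out, 0 to 4 genes of the list were lower and 1 to 3 higher.

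Partners of SLAMF7 in engulfment were also mixed. Of 10 genes tested 2 were lower and 1 higher (median -0.04), beside 6.87% and 4.58% of all tested genes. Itgam, the alpha chain of Mac-1, was at 1503, 1513 and 1498 CPM with lipids and 1044, 998 and 1017 CPM without. The groups were far apart, in the direction opposite to Slamf7, at 0.56 log2 (SE 0.05, edgeR adjusted p = 7.72e-05), past the threshold in all 12 alternatives tried. An annotated same-strand gene, Gm49368, shares 68.7% of the exon bases of Itgam. It has no row in the deposited counts, so no reads were counted to it. Itgb2, the beta chain of Mac-1, was at -0.21 log2 (SE 0.06) and did not pass (edgeR adjusted p = 0.0529). The signalling chain gene Tyrobp (DAP12) was lower at -0.23 (edgeR adjusted p = 0.0471) and the kinase gene Syk at -0.23 (edgeR adjusted p = 0.0255). Both calls were lost with library totals alone, where 0 partners were lower and 3 higher, and that of Tyrobp with median-of-ratios scaling (edgeR adjusted p = 0.0513). The call of Syk was also lost without any 1 library with lipids or without replicate 2 of the other group (edgeR adjusted p = 0.0864 to 0.146), and that of Tyrobp without any library but replicate 1 without lipids (0.0966 to 0.21). With 1 library out, 0 to 4 partners were lower and 1 to 3 higher.

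In the list of the NADPH oxidase, which SLAMF8 dampens, and of the VPS34 lipid kinase complex, which SLAMF1 binds, 2 of 11 tested genes were lower and 0 higher (median -0.03). Both were the membrane subunits of the oxidase. The shares over all tested genes were 6.87% lower and 4.58% higher. Cybb was at 416, 429 and 427 CPM with lipids and 589, 591 and 635 CPM without. The groups were far apart, at -0.51 log2 (SE 0.06, edgeR adjusted p = 0.000196). Cyba was at 226, 203 and 209 CPM with lipids and 262, 406 and 359 CPM without, at -0.69 (SE 0.13, edgeR adjusted p = 0.00582). The libraries without lipids were the more spread for Cyba, but did not reach those with lipids, and both genes were past the threshold in all 12 alternatives. The cytosolic subunit genes Ncf1 and Ncf4 did not pass, at 0.08 and -0.25, and the 6 genes of the VPS34 complex lay between -0.08 and 0.07 without passing. With 1 library out, 2 or 3 genes of this list were lower and 0 higher.

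The Fc gamma receptors, antibody receptors that like the SLAM family have immunoglobulin domains, had 1 of 4 genes higher, Fcgr1 at 0.29 (SE 0.06, edgeR adjusted p = 0.00815), and 0 lower (median 0.21). Among all tested genes 4.58% were higher and 6.87% lower. The count of higher Fc gamma receptor genes was 2 with DESeq2 and 0 to 4 with 1 library out, and the call of Fcgr1 was lost without replicate 2 with lipids (edgeR adjusted p = 0.0724). Whether the SLAM receptors differed from any of these lists was not tested.

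**Figure D4:**
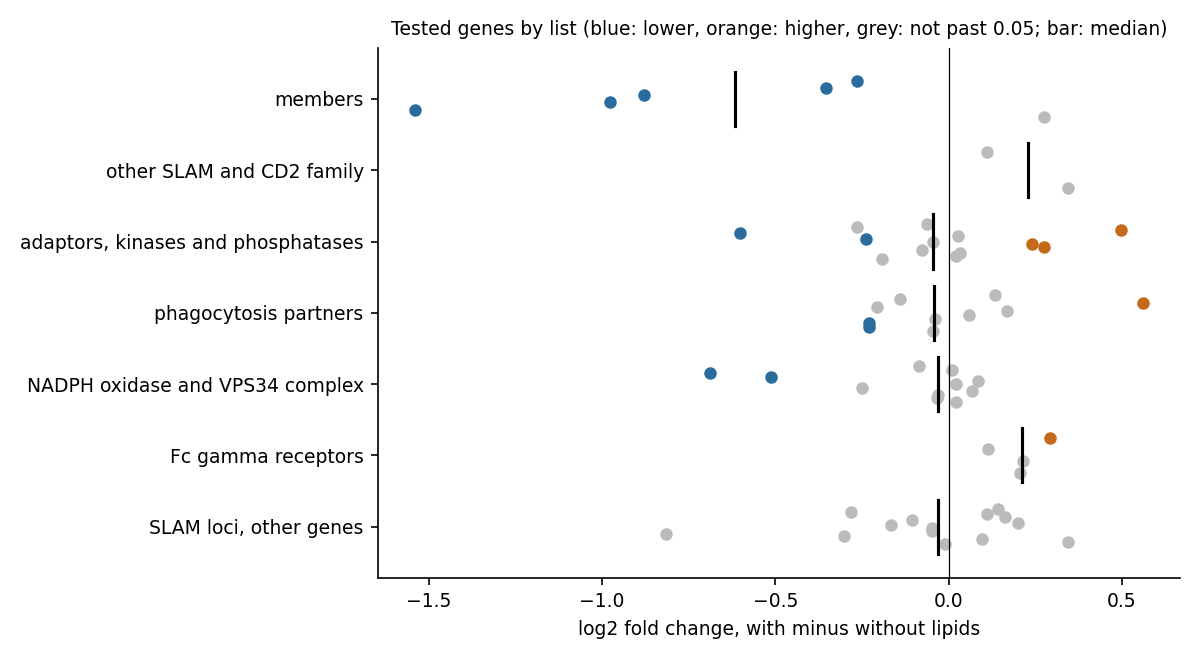
Log2 fold change (with minus without lipids) of each tested gene by list, in blue where lower and in orange where higher at an edgeR adjusted p of 0.05, grey otherwise, with the list's median as a bar. The members were chosen by this contrast. Their median of -0.62 lies left of all other list medians, which lie between -0.05 and 0.23.

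For each member the 2 protein-coding genes of at least 5 CPM with the most similar pattern over the 6 libraries were found by Pearson's r of log2(CPM + 1), among 9481 genes. Libraries of 2 groups underlie each r, so genes whose group difference has the same direction can score high whatever its size. The r is a description. Slamf8 was most like Cd274, the checkpoint ligand PD-L1 (r = 0.999), which averaged 29.0 CPM with lipids and 68.2 CPM without, and like Cipc (0.998). Slamf7 was most like Gusb and Gadd45a (both 0.999), which differed by -0.22 and -1.12 log2. Ly9 was most like Dnajb6 (0.999), at -0.21 log2, and Atp6v0d2 (0.998), a lysosomal proton pump subunit gene, at -1.51 log2. Cd84 was most like Sdhd and Arf4 (both 0.999), Cd48 like Tspyl4 and Stx8 (both 0.991) and Slamf9 like Fancg (0.992) and Phf19 (0.991). Among the members themselves Ly9 and Slamf7 had the highest r over the 6 libraries (0.99). After each group's mean was subtracted, it was 0.62 for that pair, and over all 15 pairs it ran from -0.94 (Slamf9 and Ly9) to 0.73 (Slamf8 and Cd84).

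**Figure D5:**
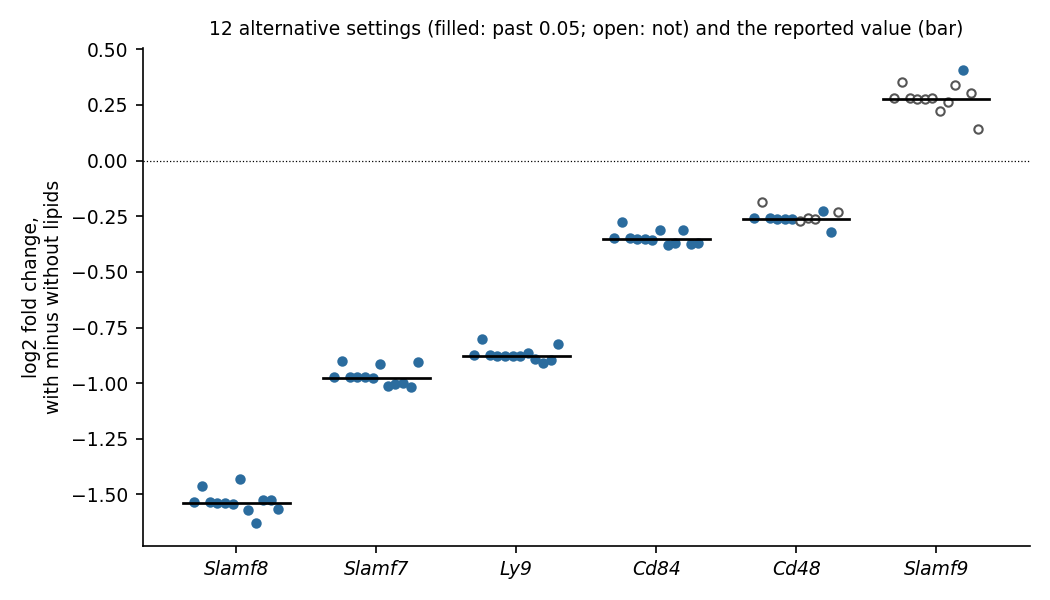
Log2 fold change (with minus without lipids) of each SLAM receptor under 12 alternative settings, filled where past an adjusted p of 0.05 and open where not, with the reported value as a bar. Slamf8, Slamf7, Ly9 and Cd84 are filled throughout, Cd48 in 7 of 12 settings and Slamf9 in 1 of 12.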

How the data were processed

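The study measured polyadenylated RNA of mouse bone marrow-derived macrophages in 6 libraries made with a stranded kit, per the labels' protocols. The authors deposited raw counts per Ensembl gene for each library. The build GRCm38.p4 and the tools HTSeq, TopHat2 2.1.0 and DESeq2 appear in the list of the submitters' processing notes, without their roles. Strand setting and annotation release: not given in the sources used here. GENCODE M21 (GRCm38) gave symbols, places and summed exon lengths, and 46005 of 46603 identifiers matched. Promoters came from RefSeq on GRCm38.p6.

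Groups came from the sample titles. Genes were tested across all genes with edgeR 4.0.16 in R 4.3.3 (filterByExpr with a minimum count of 10 and total of 15, trimmed mean of M-values factors, quasi-likelihood F test, two-sided, Benjamini-Hochberg adjustment over 12767 genes, threshold 0.05). Fold changes are with lipids minus without, standard errors (SE) derive from the F statistic, and CPM and RPKM use the scaled library sizes. The p-values rest on how these libraries vary, and that variation may be only technical. Replicates differed by more than sampling noise (chi-square per gene 2.65 to 20.1), and all 6 libraries were kept.

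The members and lists were chosen with earlier results of these data known. Named genes were the members, other family genes, up to 4 past the threshold per list by smallest p, and the 2 most similar genes per member. Others named as examples (Grb2, which is the fifth by p in its list, Tagln2, Gm10521, Gm37787 and genes that did not pass) were chosen after their values were seen. Alternatives were median-of-ratios scaling, library totals alone, no filter, 1 CPM in 3 libraries, DESeq2 1.42.0, the replicate number as a block and each library left out in turn. Protein sequences were not used here, and some list genes are not reported here by name.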

Additional observations from a re-analysis of the deposited data

How the results depend on the processing

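The 6 log2 fold changes of the SLAM receptors kept their direction in all 12 alternatives: -1.63 to -1.43 for Slamf8, -1.02 to -0.90 for Slamf7, -0.91 to -0.80 for Ly9, -0.38 to -0.28 for Cd84, -0.32 to -0.19 for Cd48 and 0.14 to 0.41 for Slamf9. With a library left out, 4 or 5 members were lower and 0 or 1 higher, and 4 were lower with library totals alone. Over all genes, library totals alone gave 1241 higher and 596 lower, where the median of all genes moved to 0.07. No filter gave more in both directions, 1009 higher and 1243 lower. Leaving out a library gave 423 to 1975 lower and 219 to 1566 higher, against 877 and 585, with both upper ends reached when replicate 1 without lipids was left out, and both lower ends when replicate 2 with lipids was. Of the genes in the pathway lists, 6 were lower and 5 higher, against 3 and 8 with library totals alone, and 2 to 11 lower and 2 to 8 higher with a library left out. The cause of these shifts was not tested. For the cluster neighbours the count was 0 in each direction in all 12 alternatives.

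With the replicate number as a block, 5 members were lower and 0 higher, and all genes gave 937 lower and 715 higher, the pathway lists 7 and 6. Same-numbered libraries had correlations of their deviations from the group means of -0.05, -0.17 and 0.22. Only replicate 3 correlated best with its own number. Deviations of 3 libraries per group are tied to each other, so these values cannot decide whether the numbers pair the samples. Depth limits the precision of Slamf8, Cd244a, Slamf6 and Gm37787, which had at most 129 counts in any library.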
